A study of Mus musculus with 6 samples.

Results

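The 10 genes described here encode proteins of the secondary (specific) and gelatinase granules and other late products of maturing neutrophils. They are Ltf, Lcn2, Camp, Ngp, Olfm4, Mmp8, Mmp9, S100a8, S100a9 and Retnlg. They were chosen by gene symbol, and all 10 were found among the 23306 genes with an identifier. All of them passed the filter on low values, with at least 10 normalised reads in every library, and were tested. In mouse T-cell leukaemia samples from bone marrow, each of the 10 transcripts was higher in every library with Phf6 deleted than in every library with wild-type Phf6. The same pattern was found in 15.0% of the 17993 genes tested. The ratio of group means ran from 3.07 for Ltf to 13.8 for Olfm4. Olfm4 and Mmp8 passed the test over all genes and the other 8 did not. These calls rested on single libraries. Without wild-type library 2, the highest wild type, all 10 passed, and without knockout library 1 only Mmp8 did. Without any 1 of the other 4 libraries none did. Of the 17993 genes tested, 1575 were called (5.32% rose and 3.43% fell), and 253 to 1941 with 1 library left out.

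Neutrophils fill their granules in a fixed order as they mature. Promyelocytes make the proteases and peroxidase of the primary granules, myelocytes and metamyelocytes make the iron-binding, iron-sequestering and antimicrobial proteins of the secondary granules, and band cells make the gelatinase of the tertiary granules. The transcription factor C/EBP-epsilon, encoded by Cebpe, is required for the secondary granule genes, which serve as markers of maturing granulocytes in bone marrow.

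PolyA RNA was sequenced from 6 samples of isogenic T-cell acute lymphoblastic leukaemia of the mouse on the C57BL/6 background, 3 with wild-type Phf6 and 3 with Phf6 knocked out. Phf6 encodes a nuclear PHD finger protein and is deleted here by a Cre recombinase that tamoxifen activates, with corn oil as the vehicle. The labels give neither the promoter that drives Cre nor the drug that each sample received, so exposure to tamoxifen and loss of Phf6 cannot be told apart, and age is not given in the sources used here. The labels do not tie each sample to an animal of its own, so the p-values measure only the spread between these samples, which may be technical. Between 46067511 and 54953145 reads per library were assigned to genes. Normalised read counts of Phf6 were 4240 to 5508 in wild type and 1755 to 2337 in knockout. The defining T-lineage markers were present: of 10 none was at 0 in any library, and their summed level was 3656 to 3792 CPM (reads scaled to the library total) in wild type and 3117 to 3713 CPM in knockout. One of the 10, Cd247, fell, by 0.57 on the log2 scale (limma adjusted p = 0.00431), and without knockout library 1, 3 of the 10 fell.

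The DNA before the RefSeq start of 6 of these genes is shown because C/EBP factors are known to act near the start of such genes. Whether they had a part in the values here was not tested. The windows are from RefSeq (GRCm38.p6), which held 9 of the 10 genes; Mmp9 had no entry. Each runs 5′ to 3′ on the gene's own strand, from 250 bases before the RefSeq start to that start or to the first base of an exon of the gene in GENCODE M21. Ngp and Ltf are neighbours on chromosome 9, S100a8 and S100a9 are a pair on chromosome 3, and Olfm4 and Mmp8 are the members that passed the test. The RefSeq start of Olfm4, at position 80000302, lies inside the gene as GENCODE M21 draws it, since a longer noncoding transcript there begins at 79984081, so the Olfm4 window falls in an intron of that transcript. Capitals mark each match to a loose C/EBP site pattern, TTNNGNAA, on either strand.
Ngp (chr9:110419558-110419746, plus strand): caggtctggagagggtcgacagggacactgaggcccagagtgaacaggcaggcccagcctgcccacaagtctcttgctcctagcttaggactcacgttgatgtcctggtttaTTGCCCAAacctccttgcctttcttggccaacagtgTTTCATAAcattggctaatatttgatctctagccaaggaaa
Ltf (chr9:111019042-111019270, plus strand): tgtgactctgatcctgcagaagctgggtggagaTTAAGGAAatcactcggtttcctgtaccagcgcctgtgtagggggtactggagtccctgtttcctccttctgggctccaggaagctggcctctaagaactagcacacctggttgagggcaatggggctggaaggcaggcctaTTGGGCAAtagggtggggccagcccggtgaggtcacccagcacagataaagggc
S100a8 (chr3:90668821-90668977, plus strand): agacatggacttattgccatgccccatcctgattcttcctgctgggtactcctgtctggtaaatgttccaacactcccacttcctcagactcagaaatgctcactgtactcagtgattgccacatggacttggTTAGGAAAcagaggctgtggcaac
S100a9 (chr3:90695722-90695971, minus strand): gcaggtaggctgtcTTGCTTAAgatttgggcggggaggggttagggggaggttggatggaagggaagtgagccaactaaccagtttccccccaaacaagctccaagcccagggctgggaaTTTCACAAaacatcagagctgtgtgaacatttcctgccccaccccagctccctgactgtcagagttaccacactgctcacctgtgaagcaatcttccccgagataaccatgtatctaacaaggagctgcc
Olfm4 (chr14:80000052-80000250, plus strand): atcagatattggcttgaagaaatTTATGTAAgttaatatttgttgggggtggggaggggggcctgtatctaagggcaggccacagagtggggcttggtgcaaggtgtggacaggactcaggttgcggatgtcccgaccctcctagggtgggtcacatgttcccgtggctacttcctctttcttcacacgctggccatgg
Mmp8 (chr9:7558179-7558428, plus strand): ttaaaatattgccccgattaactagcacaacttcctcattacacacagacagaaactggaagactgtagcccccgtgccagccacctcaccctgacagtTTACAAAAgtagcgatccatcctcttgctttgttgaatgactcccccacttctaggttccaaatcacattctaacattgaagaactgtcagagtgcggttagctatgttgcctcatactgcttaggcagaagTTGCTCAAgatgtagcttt

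Within the full 250 bases, 8 of the 9 members with a window held at least 1 match to TTNNGNAA, and Camp held none. The same pattern occurred in 36.8% of 32851 mouse promoter windows of that length. The letters GAGGAA, a core of sites for the myeloid factor PU.1, were found on either strand in 5 of the 9 and in 23.3% of all windows. The TATA box letters TATAAA were found in 1 of the 9, S100a8, and in 12.4% of all windows. In Ltf the matches TTAAGGAA and TTGGGCAA began 217 and 75 bases before the RefSeq start. Ngp held TTGCCCAA and TTTCATAA, beginning 138 and 102 bases before the start, and a further TTGGGCAA within the part that GENCODE counts as exon. These are matches of letters, and binding was not measured.

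Lactotransferrin, the iron-binding glycoprotein that defines the secondary granule, is encoded by Ltf (ENSMUSG00000032496; GRCm38 chromosome 9, 111019271 to 111042767, plus strand). Its normalised read counts, here and below in the order of libraries 1 to 3, were 712, 2170 and 1084 in wild type and 4382, 4562 and 3211 in knockout. The groups did not overlap, and the lowest knockout value was 1.48 times that of wild-type library 2. Means were 1322 ± 758 (SD, n = 3) and 4052 ± 733 (SD, n = 3), and the log2 fold change was 1.75 ± 0.45 (SE; limma adjusted p = 0.0881), the smallest of the 10.

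Lcn2 encodes lipocalin 2, which binds bacterial siderophores and so withholds iron. It lies on chromosome 2 (32384633 to 32388252, minus strand), and its normalised read counts were 528, 1770 and 904 in wild type and 4369, 4608 and 3457 in knockout. The spread among the knockouts was the narrowest of the 10 genes, with the highest 1.33 times the lowest. The log2 fold change was 2.12 ± 0.47 (SE; limma adjusted p = 0.0658).

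In both Camp and Ngp, wild-type library 2 was the highest wild-type library and knockout library 3 the lowest knockout. Camp encodes the single mouse cathelicidin, the precursor of the antimicrobial peptide CRAMP (chromosome 9, 109847379 to 109849617, minus strand). Its normalised read counts were 242, 1523 and 512 in wild type and 4736, 4693 and 2473 in knockout, and it was the single member that was highest in knockout library 1. Its log2 fold change, 2.72 ± 0.79 (SE), had the largest error of the 10 (limma adjusted p = 0.125). Ngp encodes neutrophilic granule protein, a cystatin-related protein of the same granules (chromosome 9, 110419747 to 110423012, plus strand). Counts of Ngp were 1184, 5051 and 2223 in wild type and 14909, 16158 and 10904 in knockout, with every knockout library at least 2.16 times wild-type library 2. Its log2 fold change was 2.54 ± 0.60 (SE; limma adjusted p = 0.0806).

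Olfm4, which encodes olfactomedin 4, a glycoprotein stored in the specific granules of a subset of neutrophils, stood furthest apart (chromosome 14, 79984081 to 80023139, plus strand). Its normalised read counts were 10.01, 82.0 and 17.2 in wild type and 458, 637 and 409 in knockout. The lowest knockout value was 4.99 times the highest wild-type value, the widest gap of the 10 genes. In wild-type library 1 this rested on 10 reads and in knockout library 2 on 613. The gene rose by 4.20 ± 0.74 on the log2 scale (SE; limma adjusted p = 0.0292). GENCODE M21 places Gm6999, a long noncoding RNA, over it on the same strand, so reads of the overlap are uncertain.

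**Figure D1:**
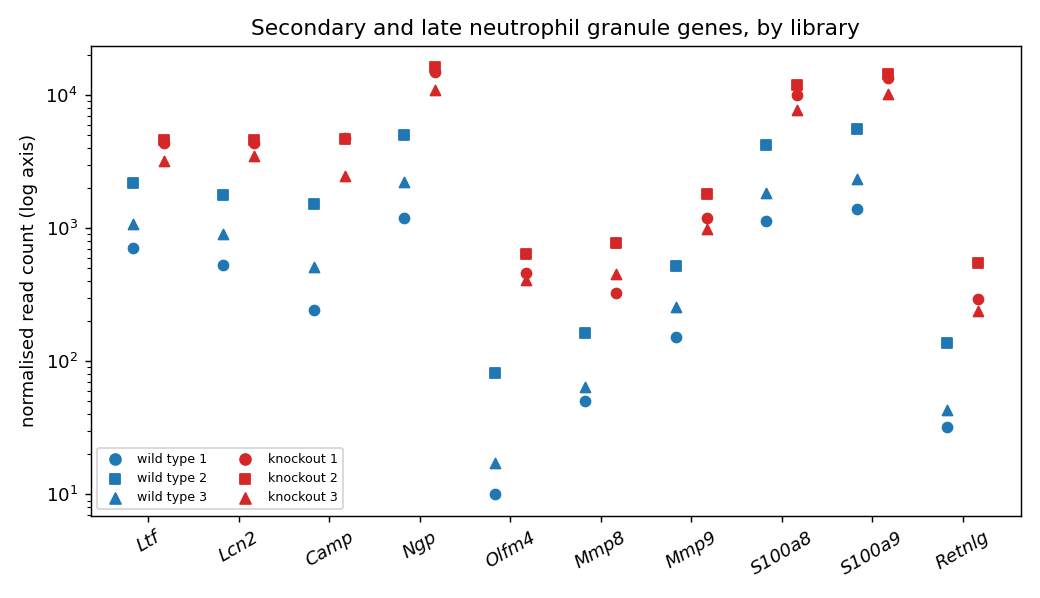
Normalised read counts (log axis) of the 10 genes, one point per library; blue is wild type, red is knockout, and circles, squares and triangles are libraries 1, 2 and 3. For every gene the 3 knockout points lie above the 3 wild-type points, and the blue square (wild-type library 2) is the highest blue point.

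The matrix metalloproteinases of neutrophils degrade collagen and gelatin. Mmp8, neutrophil collagenase of the specific granules (ENSMUSG00000005800; chromosome 9, 7558456 to 7568485, plus strand), was counted at 50.05, 163 and 64.2 normalised reads in wild type and 325, 777 and 456 in knockout. It rose by 2.56 ± 0.51 on the log2 scale (SE; limma adjusted p = 0.0319). Among the knockouts its spread was the widest of the 10, with knockout library 2 at 2.39 times knockout library 1. Mmp9, gelatinase B, the enzyme that names the tertiary granule (chromosome 2, 164940780 to 164955850, plus strand), had counts of 152, 520 and 258 in wild type and 1187, 1810 and 986 in knockout. Its log2 fold change was 2.22 ± 0.50 (SE; limma adjusted p = 0.0573).

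S100a8 and S100a9 encode the subunits of calprotectin, a calcium- and zinc-binding heterodimer that fills the neutrophil cytosol. The genes lie 22.6 kb apart on chromosome 3 (S100a8 at 90668978 to 90670035, plus strand; S100a9 at 90692632 to 90695721, minus strand). Counts of S100a8 were 1125, 4208 and 1842 in wild type and 10066, 11884 and 7759 in knockout. Those of S100a9 were 1402, 5525 and 2326 in wild type and 13463, 14323 and 10121 in knockout. The log2 fold changes were 2.24 ± 0.55 and 2.25 ± 0.56 (SE; limma adjusted p = 0.0861 and 0.0913). Retnlg encodes resistin-like gamma, a secreted protein of the resistin family made by neutrophils (chromosome 16, 48872621 to 48874496, plus strand). Its counts were 32.0, 136 and 43.4 in wild type and 296, 543 and 237 in knockout, and its log2 fold change was 2.50 ± 0.59 (SE; limma adjusted p = 0.0544).

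All 10 members had the 3 knockout values above the 3 wild-type values, a pattern found in 15.0% of the 17993 genes tested. Their median log2 fold change was 2.38, against -0.01 over all genes tested. With limma and Benjamini-Hochberg adjustment over all genes, 2 of the 10 rose and none fell, where 5.32% of all genes tested rose (957) and 3.43% fell (618). With upper quartile scaling 1052 genes rose and 406 fell, and with library totals 1213 and 300. All 10 had an unadjusted p under 0.05, as had 12.7% of genes tested, in that direction. The edgeR test on recovered reads called 2 members, Olfm4 and Mmp8 (adjusted p = 0.0438 and 0.0483), and DESeq2 called 10, where edgeR called 5.32% and DESeq2 7.39% of all genes higher.

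The number of members called depended on single libraries. For each of the 10 genes wild-type library 2 was the highest wild-type library and library 1 the lowest, whereas library 2 was the highest wild-type library for 40.8% of all genes tested. The ratio of wild-type library 2 to library 1 ran from 3.05 for Ltf to 8.19 for Olfm4, with a median of 3.84. Without wild-type library 2, all 10 members passed, with log2 fold changes from 2.19 for Ltf to 5.03 for Olfm4. Without wild-type library 1, wild-type library 3, knockout library 2 or knockout library 3 none passed, and without knockout library 1 Mmp8 alone did. The log2 fold change of Ltf stayed between 1.38 and 2.19 and that of Olfm4 between 3.62 and 5.03 over all alternatives run.

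**Figure D2:**
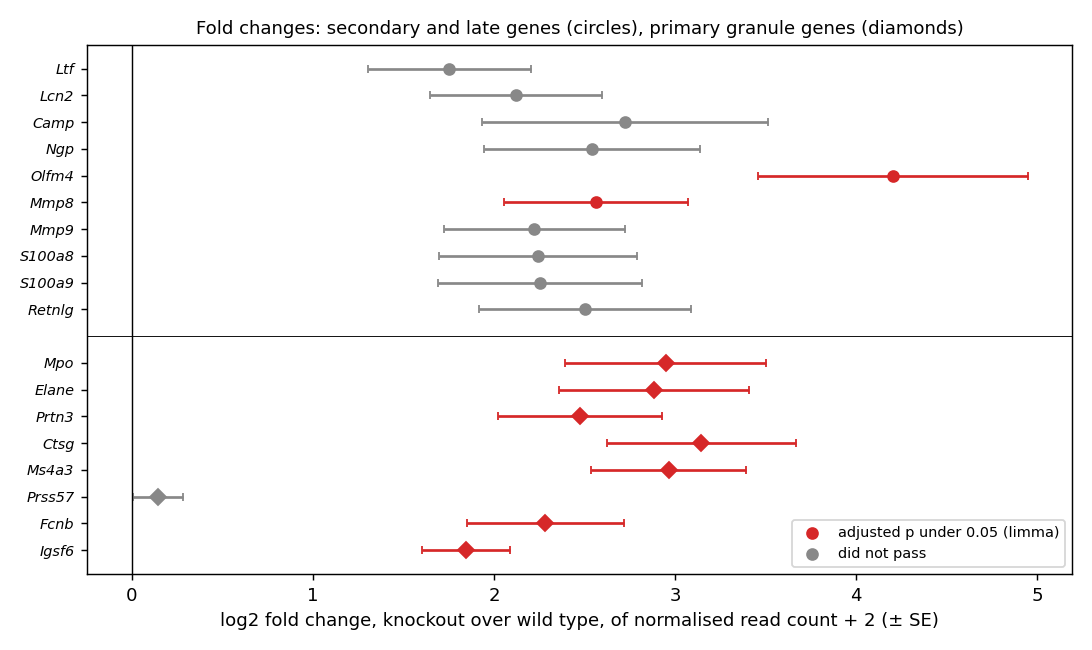
Log2 fold change, knockout over wild type, on the scale of log2(normalised read count + 2), with its SE, for the 10 secondary and late genes (circles) and 8 primary granule genes (diamonds); red marks an adjusted p under 0.05 in limma and grey the rest. All 10 circles lie between 1.75 and 4.20 and 2 are red, and of the diamonds Prss57 alone lies near 0. The diamonds include Ms4a3 and Igsf6, which do not encode granule proteins.

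Together the 10 transcripts made up 0.0106%, 0.0411% and 0.0187% of reads in wild type and 0.113%, 0.123% and 0.0857% in knockout. Their summed level was 235 ± 158 CPM (SD, n = 3) in wild type and 1070 ± 191 CPM (SD, n = 3) in knockout. In bulk samples such as these, more cells of a type and more RNA per cell cannot be told apart. Ngp, S100a8 and S100a9 supplied 68.3% to 71.9% of these reads in every library. On the RPKM scale, which divides by exon length and library total, the order of the genes by group mean was the same in both groups. In knockout, S100a9 led with 504 ± 78 RPKM, and Olfm4 was last with 3.52 ± 0.76 (SD, n = 3). Between them in falling order came S100a8 (297), Ngp (238), Camp (109), Lcn2 (32.9), Ltf (24.5), Retnlg (12.6), Mmp9 (7.80) and Mmp8 (4.46 RPKM). The neighbours S100a8 and Ngp, Retnlg and Mmp9, Mmp9 and Mmp8, and Mmp8 and Olfm4 overlapped between knockout libraries on this scale, and the remaining neighbours did not. In wild type, S100a9 stood at 116 ± 80 and Olfm4 at 0.240 ± 0.259 RPKM. Every pair of neighbours overlapped between wild-type libraries, and in wild-type library 1 Ltf (4.04 RPKM) stood above Lcn2 (3.94 RPKM).

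Ratios within a library do not depend on how the library was scaled, and several were compared, chosen after the values were seen. S100a9 to S100a8 was nearly constant, from 1.21 to 1.34 over the 6 libraries, with overlapping groups. Relative to Ltf, transcripts of Ngp, Lcn2, Camp and Olfm4 were higher in the knockouts. Ltf had the smallest log2 fold change of the members (1.75), so this direction followed from dividing by Ltf. Ngp to Ltf was 1.66, 2.33 and 2.05 in wild type and 3.40, 3.54 and 3.40 in knockout. Lcn2 to Ltf was 0.741, 0.816 and 0.834 in wild type and 0.997, 1.01 and 1.08 in knockout. Camp to Ltf was 0.340, 0.702 and 0.473 in wild type and 1.08, 1.03 and 0.770 in knockout. Olfm4 to Ltf was 0.0141, 0.0378 and 0.0158 in wild type and 0.104, 0.140 and 0.127 in knockout. None of these 4 ratios to Ltf overlapped between the groups, and in 3 of them, the exception being Lcn2, wild-type library 2 was the highest wild-type library. The ratio Ngp to Camp overlapped (3.32 to 4.89 in wild type, 3.15 to 4.41 in knockout), as did Mmp9 to Mmp8 and Retnlg to Mmp9. The ratios of Ngp, Camp and S100a8 to the late neutrophil gene Csf3r overlapped too. These are descriptions of 3 libraries against 3, with no test.

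**Figure D3:**
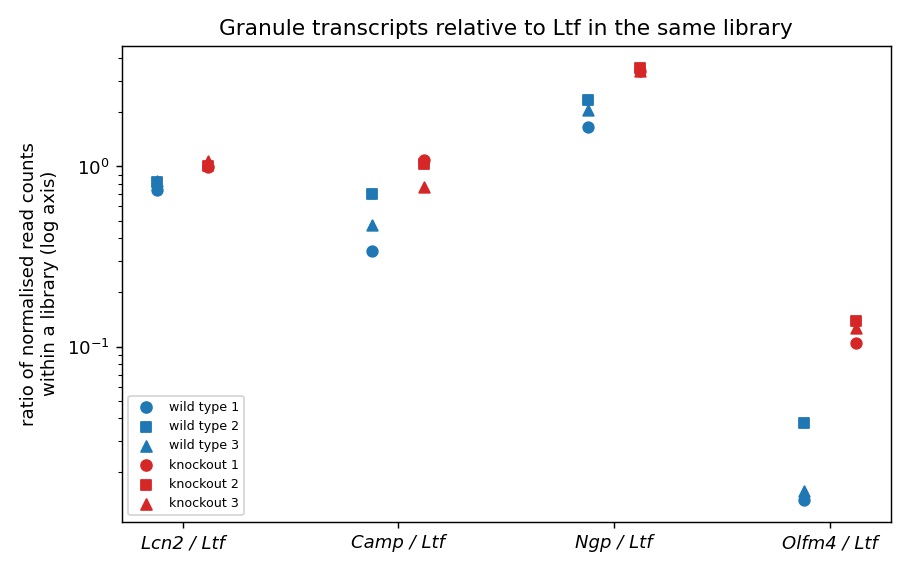
Ratio of the normalised read counts of Lcn2, Camp, Ngp and Olfm4 to that of Ltf in the same library (log axis); blue is wild type, red is knockout, and circles, squares and triangles are libraries 1, 2 and 3. For all 4 ratios the red points lie above the blue ones. Ltf had the smallest log2 fold change of the members, so this direction followed from dividing by Ltf. For Olfm4 the red points run from 0.104 to 0.140 and the blue ones from 0.0141 to 0.0378.

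Primary granule genes, made a stage earlier, were higher as well. Of 8 tested, 7 rose and Prss57 did not pass (0.15); the median log2 fold change was 2.68, and edgeR called 3. Without knockout library 1, 2 or 3 the number that rose was 2, 3 and 1, without wild-type library 1 or 3 it was 3 and 1, and without wild-type library 2 it was 7. Ctsg, cathepsin G, went from 133, 450 and 129 to 1645, 1665 and 2021 normalised reads, a log2 fold change of 3.15. Ms4a3, a gene of granulocyte-monocyte progenitors, rose by 2.96, Fcnb, a ficolin of early granulocytes, by 2.28 and Igsf6 by 1.84. The list is named for the primary granule, but Ms4a3 and Igsf6 do not encode granule proteins. Wild-type values were highest in library 2 for all 8 genes of the list. The ratio of Ltf to Mpo, the peroxidase of the primary granules, was 1.89, 1.801 and 3.15 in wild type and 0.959, 1.35 and 0.685 in knockout, without overlap. Lcn2 to Mpo was also lower in knockout without overlap (1.40, 1.47 and 2.62 in wild type; 0.956, 1.36 and 0.737 in knockout). Olfm4 to Mpo went the opposite way, at 0.0266, 0.0680 and 0.0499 in wild type and 0.100, 0.188 and 0.0873 in knockout, again without overlap. That of Ngp to Mpo overlapped (3.15, 4.19 and 6.46 in wild type, and 3.26, 4.77 and 2.33 in knockout). The log2 fold change of Mpo was 2.95, above those of Ltf (1.75), Lcn2 (2.12) and Ngp (2.54) and below that of Olfm4 (4.20). The directions of the ratios to Mpo followed from these fold changes.

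Other neutrophil genes were tested from lists outside the 10. Of 19 tested genes in a list named for other granule and secretory vesicle proteins, 12 rose and none fell (median log2 fold change 2.20). Whether each gene of that list encodes such a protein was not checked. Without knockout library 3 none of these 19 passed, without knockout library 1 or 2 the number was 7 and 6, without wild-type library 1 or 3 it was 7 and 3, and without wild-type library 2 it was 17. Among them were Itgam, the alpha chain of Mac-1 (1.38), Mmp25, a membrane-anchored metalloproteinase of leukocytes (1.81), Adam8 (0.94) and Ltb4r1, the leukotriene B4 receptor (2.35). Of 24 tested late neutrophil genes, 13 rose and none fell (median 1.83). The number was 2 without knockout library 3, 6 without wild-type library 3 and 18 without wild-type library 2. Cxcr2, the chemokine receptor that draws neutrophils out of the marrow, rose by 1.76, Csf3r, the G-CSF receptor, by 1.71, the chemokine gene Ccl6 by 2.33 and Alox5ap, needed for leukotriene synthesis, by 1.51.

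The knockout libraries differed from each other in which neutrophil genes were high. Knockout library 2 was the highest knockout for 9 of the 10 members, and library 3 was the lowest for 9, Mmp8 being lowest in library 1. The ratio of library 2 to library 1 was 0.991 for Camp, 1.04 for Ltf, 1.05 for Lcn2, 1.06 for S100a9, 1.08 for Ngp, 1.18 for S100a8, 1.39 for Olfm4, 1.52 for Mmp9, 1.83 for Retnlg and 2.39 for Mmp8. Genes of the specific granule stood at both ends of this order, Camp and Ltf at the low end and Mmp8 at the high end. In primary granule genes the same ratio had a median of 0.806, and 7 of 8 were highest in library 1 or 3. In the 24 late neutrophil genes its median was 1.77, and it ran from 0.780 for Padi4, by way of 0.840 for Lrg1 and 0.921 for Cxcr2, to 5.09 for Clec4e, 5.60 for Trem1 and 12.9 for Il1b. The last of these rests on 11.5 normalised reads of Il1b in knockout library 1. With 1 library on each side, these ratios carry no replicate error and no test. The matching shares and ratios over all genes tested were not computed, so these orders are not shown to be particular to neutrophil genes.

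**Figure D4:**
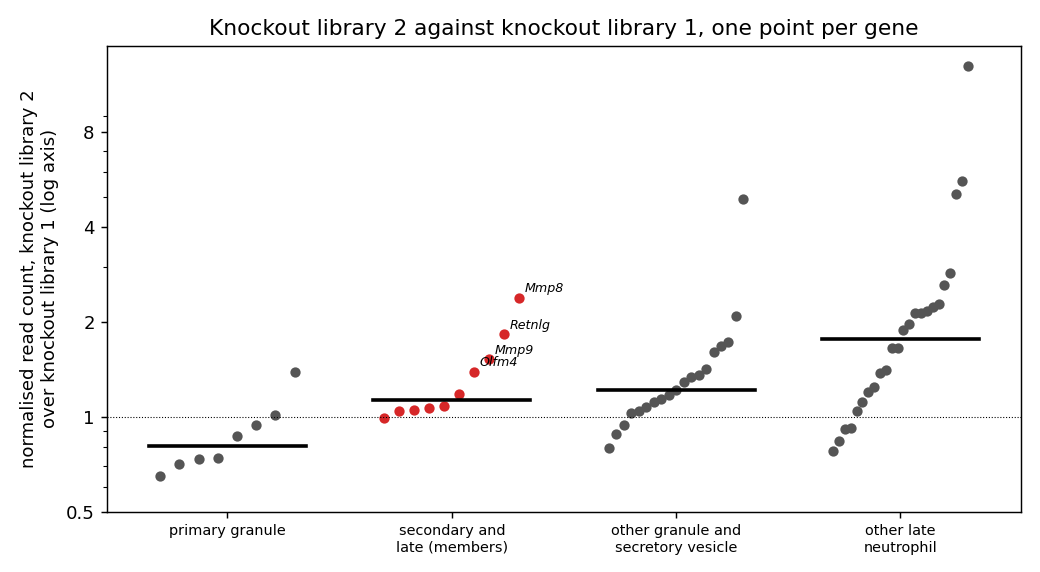
Normalised read count in knockout library 2 divided by that in knockout library 1 (log axis), one point per tested gene of 4 gene lists, and black bars for the medians, which are 0.806 for primary granule genes, 1.13 for the 10 secondary and late genes (red), 1.22 for other granule genes and 1.77 for other late neutrophil genes.

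Transcription factors of granulocyte development were measured at the same time. Of 8 tested with at least 10 normalised reads in a wild-type library, 2 rose and none fell. Of all 9 tested, 3 were called, against 1 without knockout library 3 and 5 without wild-type library 2. Spi1, which encodes PU.1, went from 96.1, 236 and 94.0 to 577, 743 and 603 normalised reads, a rise of 2.29 ± 0.34 on the log2 scale (SE; limma adjusted p = 0.00964). Cebpd rose by 1.58. Klf5 stood at 2.00, 7.90 and 5.42 normalised reads in wild type and 44.9, 45.7 and 36.1 in knockout (log2 fold change 2.73), and since it entered the test through the knockouts alone, its call adds no support. Cebpe, the factor required for secondary granules, had values of 22.02, 103 and 28.0 in wild type and 211, 184 and 159 in knockout. Its log2 fold change of 2.13 ± 0.53 (SE) did not pass (limma adjusted p = 0.0520), and its wild-type library 2 again lay between the groups. Cebpa (1.16), Cebpb (0.23), Gfi1 (0.16), Irf8 (-0.16) and Stat3 (-0.11) did not pass. Which cells made these transcripts was not measured. Cebpb, unlike the 10 granule genes, was as high in wild-type library 2 (1782) as in knockout library 2 (1762).

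Reported receptors and inhibitors of the proteins encoded by these genes were checked too. Of 8 tested, 5 rose and none fell. The number was 1 without knockout library 3, and 3 without knockout library 2, wild-type library 1 or wild-type library 3, or with a filter of 1 CPM in 3 libraries. Slc22a17, which encodes a reported receptor of lipocalin 2, rose by 1.91 and Lrp1, a scavenger receptor, by 0.73. Tlr4, a receptor for calprotectin, rose by 1.83 and Reck, a membrane inhibitor of metalloproteinases, by 0.84. Timp2, an abundant secreted inhibitor, did not pass (-0.12), and Timp1 had too few reads to be tested.

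Paralogs of the members were mixed in direction. Of 5 tested S100 genes, S100a6 (2.22) and S100a11 (1.44) rose, while S100a10 (-0.46) and S100a13 (-0.12) did not pass. Without knockout library 3, wild-type library 1 or wild-type library 3, 1 of the 5 rose. Of 8 other matrix metalloproteinase genes tested, Mmp25 rose, and Mmp15 (0.66), Mmp19 (0.97) and Mmp24 (-0.83) did not pass. Of those 8, 2 rose without knockout library 1 and 0 without knockout library 3. Olfm1 (2.09) rose, and its relative Olfm2 (0.67) did not pass; Olfm1 was not called without knockout library 2 or 3 or without wild-type library 1 or 3, nor with a filter of 1 CPM in 3 libraries. Among relatives of Ltf, neither Trf, which encodes transferrin (-0.73), nor Meltf (1.48) passed. The median log2 fold change was -0.12 for the S100 genes and -0.18 for the metalloproteinases.

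Of the 10 genes, 4 lie on chromosome 9, and Camp, Ngp and Ltf fall within 1195 kb of each other. Between Camp and Ltf, leaving out Ngp, 25 genes were tested and none was called by limma, edgeR or DESeq2 (4 had an unadjusted limma p under 0.05), with a median log2 fold change of 0.03. Within 250 kb of any member, 85 other genes were tested, of which 2 rose and 4 fell, with a median of -0.05. The 2 that rose were S100a6 and Lrrfip2 (0.40). Over all genes tested, 5.32% rose and 3.43% fell.

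The gene whose values over the 6 libraries were most like the mean profile of the 10 was Siglece, an inhibitory lectin gene of myeloid cells (Pearson r = 0.999 on the log2 scale over 6 libraries). Next came Anxa1, Tmem189, Alox5, Abca13 and Abhd5, with r from 0.998 to 0.997. Of 11047 genes ranked, 30 had an r above 0.99. Anxa1 encodes annexin A1 and Alox5 encodes 5-lipoxygenase, both abundant in neutrophils. Tmem189 had the same order of libraries with a log2 fold change of 0.19, so a like profile did not mean a like size. Among the members, r with the mean of the other 9 ran from 0.971 for Mmp8 to 0.999 for S100a8. All points share the same libraries and the same contrast between groups, so these values describe likeness and nothing more.

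Several markers of monocytes, of eosinophils, basophils and mast cells, and of B cells were also higher in the knockouts, and their part in the result was not tested. Of 15 monocyte and macrophage markers 6 rose and none fell, none was at 0 in any library, and their sum was 42.3 to 74.0 CPM in wild type and 117 to 164 CPM in knockout. Without knockout library 2 or 3 the number that rose was 1 and 0, and without wild-type library 1 or 3 it was 2 and 1. Ly6c2 rose by 2.82, F13a1 by 1.95, Fcgr1 by 1.797 and Ctss by 1.66, while the complement genes C1qa (-0.32), C1qb (0.08) and C1qc (-0.23) of resident macrophages did not pass. Of 3 tested eosinophil, basophil and mast cell markers, Ear2 (1.59) and Mcpt8 (2.998) rose and Cpa3 (1.22) did not pass, and their list summed to 5.15 to 11.3 CPM in wild type and 11.1 to 31.8 CPM in knockout. Without knockout library 1 or 2, 1 of the 3 rose, and without knockout library 3, wild-type library 1 or wild-type library 3, or with a filter of 1 CPM in 3 libraries, none did. Ear6 was at 0 in all wild-type libraries, and Mcpt8, Prss34 and Ms4a2 were each at 0 in 1 wild-type library. Of 4 B-cell markers with at least 10 normalised reads in a wild-type library, 3 rose, among them Cd79b (1.20) and Igkc (1.23), and Cd79a (1.07) did not pass. Pax5, Blk and Ms4a1 were also called, but lay under 10 in every wild-type library and entered the test through the knockouts alone. The B-cell list summed to 4.48 to 6.61 CPM in wild type and 11.7 to 19.0 CPM in knockout, and Ms4a1 and Ebf1 were at 0 in at least 1 library. Of these 7 tested, 2 rose with a filter of 1 CPM in 3 libraries, none without knockout library 3, and 3 without wild-type library 1 or 3. No erythroid marker among 9 passed in limma or edgeR, 1 had an unadjusted limma p under 0.05 and DESeq2 called 1 (sums of 6.30 to 11.8 and 8.16 to 19.9 CPM).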

How the data were processed

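PolyA RNA was measured in 6 samples. Sequencing was paired-end, from libraries of the NEBNext Ultra RNA kit, per the labels' protocols. Per the submitters' processing notes, the tools were STAR 2.6.0a, featureCounts, DESeq2 and bcl2fastq 1.8.4, and the genome was GRCm38; no annotation or strand setting is given in the sources used here. The signal in the deposited table is gene counts that the authors divided by 1 size factor per library, as read from its values: 100% of values were whole multiples of 1 step per library (tolerance 0.01). Rows without an identifier (8 of 23314, at most 0.00106% of reads) were left out.

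The test was limma 3.58.1 under R 4.3.3, with robust moderation and an intensity trend, applied to log2(value + 2). Genes entered at 10 or more in 3 or more libraries, with Benjamini-Hochberg adjustment over 17993 genes and a threshold of 0.05. This scale understates the change of low genes. Recovered reads were also tested with edgeR 4.0.16 and DESeq2 1.42.0. No 2 libraries of a group agreed within sampling noise (chi-square of 12.9 to 56.7 per degree of freedom). In counts simulated from these samples for 17689 genes, 64 of 100 genes changed 2-fold and 95 of 100 changed 4-fold were recovered. Of 172 calls, 13 were false. Each gene was drawn independently, so differences that many genes of a library share were not simulated, and these rates may not hold for the real libraries. GENCODE M21 gave positions and exon lengths. Figures used Python 3.11.15 and matplotlib 3.10.9.

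The members and lists were chosen with earlier results of these data known. Named genes were the members, the transcription factors, up to 4 genes of smallest p in each other list and the 6 genes of most like profile (mean of at least 50). Mpo, Prss57, Trem1, Il1b, Clec4e, Padi4, Lrg1, Timp1, Timp2, Lrrfip2, C1qa, C1qb, C1qc, Ear6, Prss34, Ms4a2, Cd79a, Cd79b, Ebf1 and those of the closing section were chosen after their values were seen. Alternatives covered scaling, filters, pseudocounts, tools, a replicate block and each library left out.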

Additional observations from a re-analysis of the deposited data

How the results depend on the processing

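All 160 recomputed log2 fold changes of the 10 genes, over 16 alternatives each, were positive, and 127 stayed on their side of the threshold. The number of the 10 genes called, 2, was 4 with upper quartile scaling, with library totals and with a filter of 1 CPM in 3 libraries, and 10 with DESeq2. The labels do not say whether the replicate numbers pair the samples, and the values could not settle it. Deviations of same-numbered libraries correlated at 0.01, 0.50 and 0.14, and those of the other pairs at -0.48 to 0.38. Not every library correlated best with its own number. With the replicate block 4 of the 10 and 2568 of all genes were called, against 2 and 1575 without it. Leaving out each library in turn, 0 to 10 of the 10 genes and 253 to 1941 of all genes were called. The summed level of the 10 genes, at a log2 difference of 2.31, ranged from 1.86 to 2.84 when each library was left out; this and the counts of the other gene lists without each library were chosen after seeing the data. Olfm4 in wild-type library 1, at 10 reads, has the least depth.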

Other observations

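The values of several genes listed with neutrophils overlapped between the groups. Prss57, a serine protease of the primary granules, was counted at 406, 523 and 505 normalised reads in wild type and at 565, 492 and 524 in knockout. Itgb2, the beta 2 integrin chain that pairs with the product of Itgam, stood at 11936, 9831 and 11051 in wild type and 9853, 9310.3 and 10469 in knockout. Padi4, which citrullinates histones in neutrophils, stood at 304, 399 and 327 and at 478, 373 and 307. Hdc, histidine decarboxylase, stood at 111, 123 and 105 and at 127, 116 and 127. None of these 4 passed the test, and for each of them the groups overlapped. Which cells made these transcripts was not measured in these bulk samples. Itgb2 stood at a level like that of the T-lineage marker Cd2 (means of 11188 in wild type and 9508 in knockout).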
